A study of Mus musculus with 6 samples.

Results

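Tight junctions and the polarity complexes beside them were followed at the mRNA level in isolated mouse Sertoli cells by RNA-seq. The genes were chosen by name among the protein-coding genes of the count table: the numbered claudins, the zonula occludens genes, the junctional adhesion molecules, the MARVEL proteins, the MAGI scaffolds, the PAR genes, the angiomotins, and 12 further genes given by symbol. They came to 47 genes of 28262 in the table, of which 17451 are protein coding. The rule used names only and no measured value.

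Of 6 libraries, 3 came from Pa1F/F testes, in which both Pa1 alleles carry loxP sites, and 3 from Amh-pa1-/- testes, in which Cre driven by the Amh promoter deletes Pa1 in Sertoli cells. Pa1 (PA1) is a subunit of the H3K4 methyltransferase complex that holds MLL3 and MLL4. All libraries were made from Sertoli cells of C57BL/6 mice aged 20 days, isolated from the testis and kept in culture at 34 °C in 5% CO2. The culture medium of the methods held insulin, EGF and transferrin, and no other treatment was named. The paper gives the name Amh-pa1-/- to Pa1F/F animals with Amh-cre, so by its naming the Pa1F/F animals lack it. It calls the samples biological replicates. How many animals went into a library, and whether the 3 replicates of a genotype came from separate animals, were not given in the sources used here. The p-values thus measure only the spread between these libraries. Pa1 itself was not analysed here, and the genotypes rest on the labels.

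Sertoli cells are the epithelial cells that line the seminiferous tubule and carry the germ cells. Near the tubule wall, neighbouring Sertoli cells are joined by the blood-testis barrier, a belt in which tight junctions lie beside adherens-type contacts and actin bundles. Claudins form the strands that seal the space between cells, occludin and tricellulin (Marveld2) shape the strands and the corners where several cells meet, and the JAM proteins are immunoglobulin-type adhesion molecules. Inside the cell, ZO proteins, cingulins and MAGI scaffolds tie the strands to actin, while the PAR and Crumbs complexes set the apical border of the junction.

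The 47 genes were split by role into 16 claudins, 4 MARVEL proteins, 5 JAM proteins and relatives, 9 ZO proteins and plaque scaffolds, 10 members of the PAR and Crumbs complexes and 3 angiomotins. Counts were high enough for a test in 36 of them. Here called means an edgeR quasi-likelihood p under 0.05 after Benjamini-Hochberg adjustment over 14919 genes and a change of at least 2-fold. Claudin-2, claudin-7 and paracingulin (Cgnl1) were called lower in Amh-pa1-/- cells and claudin-3 was called higher. These 4 genes are 11.1% of the 36, beside 12.0% of all tested genes (6.56% lower and 5.44% higher), so the share called was near the background. Without the demand on fold, 17 of the 36 (47.2%) were past the adjusted p of 0.05, beside 35.3% of all genes. Of these, 12 were higher (33.3%, beside 18.2% of all genes) and 5 were lower (13.9%, beside 17.1%). The 3 Amh-pa1-/- values lay apart from the 3 Pa1F/F values in 21 of the 36 (58.3%), beside 52.4% of all genes. The median log2 fold change was 0.11 over the 36 and 0.00 over all tested genes, and the median absolute log2 fold change was 0.42 and 0.30.

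**Figure D1:**
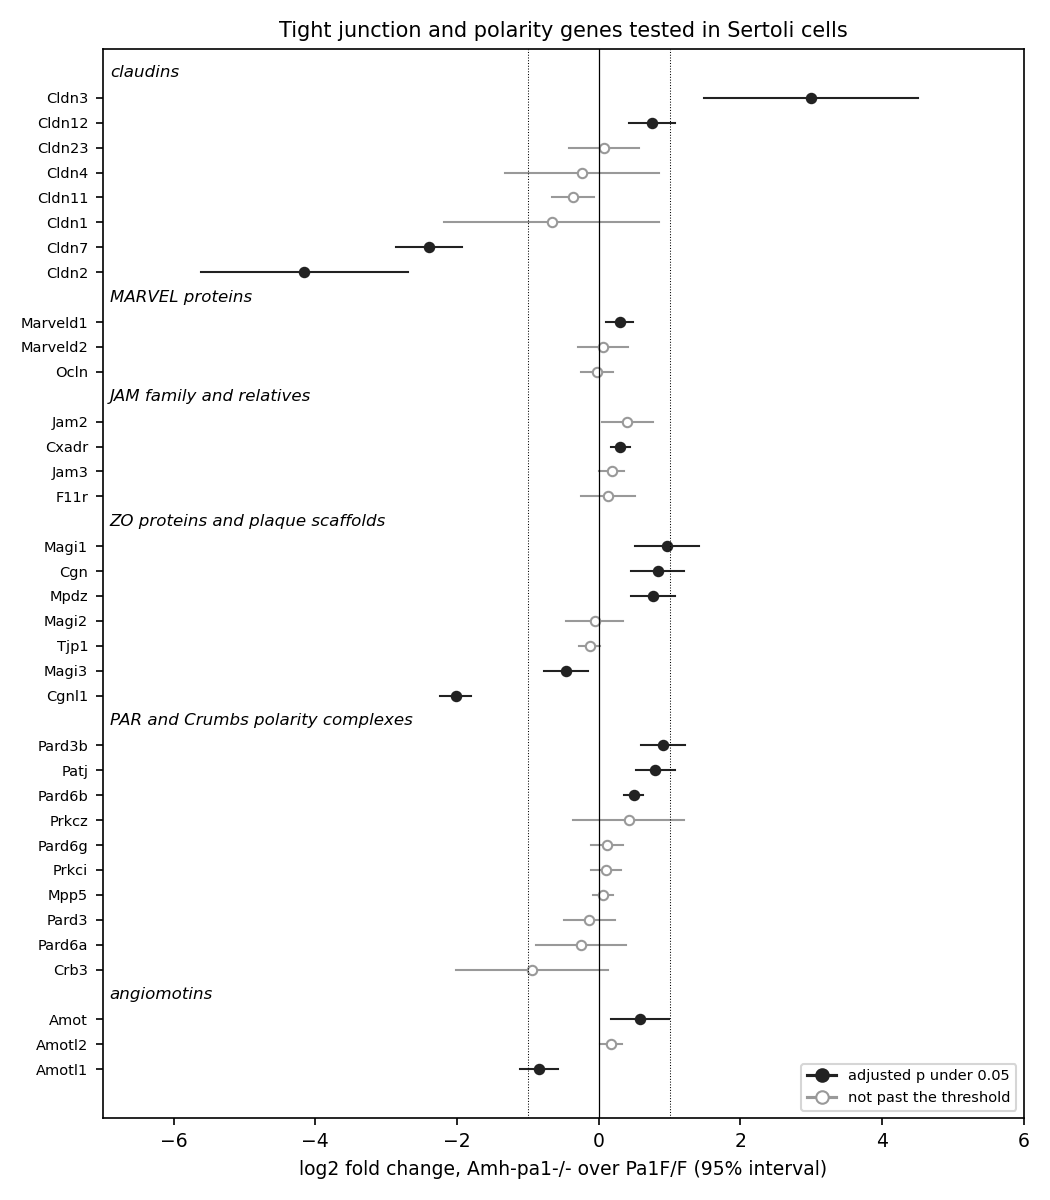
Log2 fold change (horizontal axis, Amh-pa1-/- over Pa1F/F) with its 95% interval for 35 tested junction and polarity genes, grouped by role. Filled points are past the adjusted p of 0.05 (11 to the right of 0 and 5 to the left), and the dotted lines mark 2-fold; Cldn2, Cldn7 and Cgnl1 lie beyond the left line and Cldn3 beyond the right one.

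Levels are given below as normalized counts (counts divided by the library's effective size relative to the mean effective size) within a gene, and as FPKM (the scaled counts per kilobase of exon) between genes. Library totals ranged from 13203757 to 16231443 counts, and 3 counts corresponded to 0.185 to 0.229 CPM (counts scaled to a common library size). The replicates were not equally alike: the coefficient of variation left after counting error was 3.59% within the pair Pa1F/F 1 and 3, 2.41% within the pair Amh-pa1-/- 1 and 2, and 18.4% to 22.2% within every other pair of a genotype. Pa1F/F replicate 2 and Amh-pa1-/- replicate 3 thus stood apart from the others of their genotype, and where a call rests on one of these libraries the value without it is given. When each close pair was summed and counted as 1 library, 5 of the 17 genes were past the adjusted p of 0.05, among them Cgnl1, Cldn7, Amotl1 and Pard6b. The edgeR adjusted p was then 0.0502 for Patj, 0.0506 for Pard3b, 0.0576 for Mpdz, 0.0788 for Cldn12, 0.0904 for Magi1, 0.0924 for Cgn and 0.0990 for Cxadr.

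Several marker lists of cell types that the isolates could hold differed in summed level between the genotypes. The 15 Sertoli cell markers, all listed, summed to 15985 to 16330 CPM in Pa1F/F and 9790 to 12433 in Amh-pa1-/- libraries, mostly Clu, and 4 of the 13 tested were lower and 2 higher. Sox9 and Wt1 were present in every library at 215 to 413 CPM, whereas Rhox5 and Trf were at or below 1.05. The 7 peritubular myoid markers summed to 384 to 520.1 in Pa1F/F and 1588 to 1935 in Amh-pa1-/- libraries, mostly Acta2 and Myl9. These were the 2 of 6 tested that were higher. Myh11, Cnn1, Des and Actg2 were higher in Amh-pa1-/- replicate 3 than in any other library. In Amh-pa1-/- replicates 1 and 2, Myh11 (14.6 and 11.2 CPM), Des (2.98 and 3.14) and Actg2 (4.51 and 3.52) lay below all Pa1F/F libraries. The 9 mesothelial markers summed to 36.6 to 42.4 and 82.8 to 125.5 (5 of 8 tested higher). The 10 markers of rete testis and efferent ducts summed to 3678 to 4312 and 350.5 to 614, nearly all Spp1, with Pax8, Krt7 and Wfdc2 near 0 in all libraries (1 of 7 tested lower and 4 higher). The 7 Leydig cell markers summed to 837 to 931 and 177 to 332 (3 of 4 tested lower, with Insl3 and Cyp17a1 near 0). The 10 macrophage markers summed to 124 to 137 and 75.4 to 92.8 (6 of 8 tested lower). The largest of them, Mrc1, was not lower (log2 fold change 0.17, edgeR adjusted p = 0.25) and made up most of the sum in Amh-pa1-/- libraries. Of 12 endothelial markers 11 were listed, and they summed to 135 to 148 and 78.7 to 122, mostly Cdh5, with Erg, Emcn and Sox17 near 0 (2 of 5 tested lower and 1 higher). The 9 spermatogonial markers summed to 193 to 221 and 104 to 199.6, nearly all Uchl1, which was not past the threshold (edgeR adjusted p = 0.300). The 3 of 4 tested that were lower (Kit, Ddx4 and Gfra1) were at or below 3.28 CPM in every library. The 8 spermatocyte and 8 spermatid markers (6 of the latter listed) summed to at most 7.82 in any library, with none of the 3 tested past the threshold. The part of these cell types in the results was not tested, and in such bulk samples fewer cells of a type and less RNA per cell cannot be told apart.

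Among the claudins, the level of claudin-11 was far above all others, and the changes past 2-fold were in claudins of low level. Of 16 claudins 8 were tested, 2 were called lower, 1 was called higher, and Cldn12 rose by less than 2-fold. Cldn11 (ENSMUSG00000037625, chr3:31149920-31164324, plus strand, GRCm38) encodes the claudin that builds the strands of the blood-testis barrier. It gave 16106, 15935 and 16465 normalized counts in Pa1F/F and 11084, 11504 and 15146 in Amh-pa1-/- replicates 1, 2 and 3. The groups did not overlap, but Amh-pa1-/- replicate 3 lay close to the Pa1F/F libraries. The means were 16169 ± 271 (SD, n = 3) and 12578 ± 2234 (SD, n = 3), and the difference did not pass the threshold (log2 fold change -0.36, standard error 0.13, edgeR adjusted p = 0.0632, 95% interval -0.66 to -0.06). This call turned with the method. The adjusted p was 0.0342 with DESeq2, 0.0477 with limma-voom and 0.0472 in edgeR with low-count genes kept. In edgeR it was 0.000230 when Amh-pa1-/- replicate 3 was left out, where the log2 fold change was -0.52. The other 10 of 14 alternative settings left Cldn11 short of the threshold, with an edgeR adjusted p of up to 0.372.

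Per length, Cldn11 stood at 446 ± 7.46 (SD, n = 3) FPKM in Pa1F/F and 347 ± 61.6 (SD, n = 3) in Amh-pa1-/- cells, the highest level of all 47 genes in both. It made up 94.7 ± 0.333% of the summed claudin FPKM in Pa1F/F and 92.6 ± 0.728% in Amh-pa1-/- cells (SD, n = 3). Cldn12, a claudin whose tail lacks the PDZ-binding end through which most claudins dock on ZO proteins, came next in the means of both groups. In Pa1F/F its 8.64 ± 0.712 (SD, n = 3) FPKM overlapped with the 6.99 ± 1.90 (SD, n = 3) of Cldn4, which was the higher in replicate 2. Cldn12 gave 1406, 1192 and 1305 normalized counts in Pa1F/F and 2398, 2446 and 1751 in Amh-pa1-/- libraries. Every Amh-pa1-/- value was above every Pa1F/F value, the lowest in replicate 3, and the mean was 1.69-fold higher (log2 fold change 0.76, standard error 0.14, edgeR adjusted p = 0.00634). Its share of the summed claudin FPKM was 1.83 ± 0.143% in Pa1F/F and 4.04 ± 1.25% in Amh-pa1-/- cells (SD, n = 3), given as a description.

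Cldn7 (ENSMUSG00000018569, chr11:69964779-69967885, plus strand) encodes a claudin of many simple epithelia. Its normalized counts were 122, 97.8 and 138 in Pa1F/F and 22.5, 21.4 and 24.0 in Amh-pa1-/- libraries. The Amh-pa1-/- libraries, replicate 3 included, lay within a narrow band far below the lowest Pa1F/F library. The mean fell 5.28-fold (log2 fold change -2.39, standard error 0.20, edgeR adjusted p = 0.000379), and the gene was past the adjusted p of 0.05 under all 14 alternative settings that gave a test per gene (the test against a 2-fold change was summarised as counts). In FPKM it went from 3.84 ± 0.658 (SD, n = 3) to 0.728 ± 0.0428 (SD, n = 3).

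Cldn2 (ENSMUSG00000047230, chrX:139800828-139811386, plus strand) encodes the claudin that forms channels for small cations and water. Its raw counts were 93, 48 and 56 in Pa1F/F and 6, 4 and 0 in Amh-pa1-/- replicates 1, 2 and 3. The Amh-pa1-/- libraries thus held a few reads or none. Over summed counts Pa1F/F exceeded Amh-pa1-/- 18.6-fold (95% interval 9.88 to 39.3, counting error only), and in the fit the gene fell by 4.15 on the log2 scale (standard error 0.62, edgeR adjusted p = 0.00313). The fitted log2 fold change was -4.80 without Amh-pa1-/- replicate 1 and -3.57 without replicate 3, the library with 0 counts, and was past the threshold in both. A filter of 10 counts in every library removes the gene, and with the close pairs summed its adjusted p was 0.0564.

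Cldn3 (ENSMUSG00000070473, chr5:134986214-134987472, plus strand) encodes a claudin that joins the newly formed barrier and whose expression in Sertoli cells depends on androgen. Its raw counts were 4, 2 and 4 in Pa1F/F and 14, 17 and 47 in Amh-pa1-/- libraries, so it was low in every library and highest in Amh-pa1-/- replicate 3. Over summed counts Amh-pa1-/- exceeded Pa1F/F 8.28-fold (95% interval 4.27 to 17.9, counting error only), and the fitted rise on the log2 scale was 3.0 (standard error 0.63, edgeR adjusted p = 0.0115). Without Amh-pa1-/- replicate 3 the log2 fold change was 2.29 (edgeR adjusted p = 0.00709), and with the close pairs summed the adjusted p was 0.0692. Its level stayed under that of Cldn11 by a wide margin, at 0.175 ± 0.0633 (SD, n = 3) FPKM in Pa1F/F and 1.44 ± 0.967 (SD, n = 3) in Amh-pa1-/- cells.

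The other tested claudins gave no call. Cldn4, a barrier-type claudin of many epithelia that lies 39.3 kb from Cldn3 on chromosome 5, gave 179, 241 and 141 normalized counts in Pa1F/F and 104, 86.7 and 285 in Amh-pa1-/- libraries. Replicate 3 exceeded the mean of replicates 1 and 2 by 2.98-fold and lay above all Pa1F/F libraries, while the other Amh-pa1-/- libraries lay below them. The log2 fold change was -0.24 (95% interval -1.33 to 0.86, edgeR adjusted p = 0.723), and -0.96 without replicate 3 (edgeR adjusted p = 0.0168). For Cldn23 the log2 fold change was 0.07 (95% interval -0.42 to 0.57, edgeR adjusted p = 0.805) and for Cldn1, with 4 to 22 raw counts a library, -0.66 (95% interval -2.18 to 0.86, edgeR adjusted p = 0.459). Cldn1 was also far higher in Amh-pa1-/- replicate 3, with 17 raw counts beside 4 and 4 in replicates 1 and 2, and without that library its log2 fold change was -1.67 (edgeR adjusted p = 0.0563).

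The 8 claudins with too few counts for a test were Cldn5, Cldn6, Cldn10, Cldn15, Cldn18, Cldn19, Cldn20 and Cldn24. Cldn5, the claudin of endothelial cells that has also been described in the barrier of the testis, had raw counts of 0, 0 and 1 in Pa1F/F and 0, 0 and 0 in Amh-pa1-/- libraries, under the limit of 3 counts in each. Cldn19, known from kidney and myelinating cells, had 0, 0 and 0 counts in Pa1F/F and 4, 3 and 5 in Amh-pa1-/- libraries, at least 1.40-fold higher in Amh-pa1-/- cells when Pa1F/F is set at the limit of 3 counts per library. The remaining 6 had at most 11 counts in any library, and Cldn20 overlaps the more counted Tfb1m on the other strand.

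**Figure D2:**
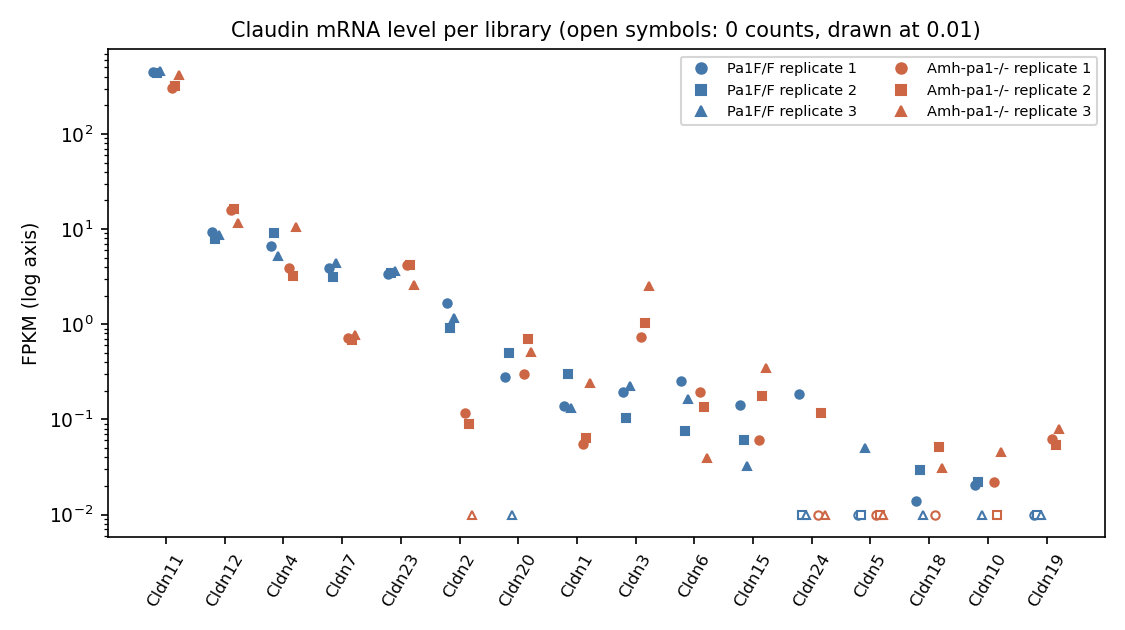
FPKM (vertical log axis) of the 16 claudins in each library, ordered by their mean level in Pa1F/F; blue points are the Pa1F/F and orange points the Amh-pa1-/- libraries, and symbols mark replicates 1, 2 and 3. Cldn11 lies far above the others, Cldn7 and Cldn2 fall in the Amh-pa1-/- libraries, Cldn12 and Cldn3 rise, and open symbols at the foot are libraries with 0 counts.

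The MARVEL proteins are membrane proteins that sit within or beside the strands. Of the 3 tested, 1 was past the threshold and none reached 2-fold. Occludin (Ocln) gave 393, 343 and 361 normalized counts in Pa1F/F and 336, 369.5 and 376 in Amh-pa1-/- libraries. The groups overlapped, the log2 fold change was -0.02 (standard error 0.09, edgeR adjusted p = 0.878), and the 95% interval ran from -0.24 to 0.20. Marveld2, which encodes tricellulin and lies 43.2 kb from Ocln on chromosome 13, had a log2 fold change of 0.06 (95% interval -0.29 to 0.41, edgeR adjusted p = 0.785). Marveld1 gave 686, 624 and 695 normalized counts in Pa1F/F and 767, 817 and 881 in Amh-pa1-/- libraries, a small rise without overlap (log2 fold change 0.30, standard error 0.08, edgeR adjusted p = 0.0286). Under 6 of 14 alternatives it was not past 0.05: without Pa1F/F replicate 1, 2 or 3 or Amh-pa1-/- replicate 2 (edgeR adjusted p of 0.0564 to 0.0725), with the replicate block (0.0636) and with the close pairs summed (0.118). Marveld3 had 0, 1 and 0 raw counts in Pa1F/F and 2, 3 and 2 in Amh-pa1-/- libraries and was not tested.

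The JAM family was led by F11r and Jam2, and 1 of its 4 tested genes, Cxadr, was past the threshold. Jam2 encodes JAM-B, which Sertoli cells present to JAM-C (Jam3) on germ cells. It gave 9144, 10966 and 9521 normalized counts in Pa1F/F and 14498, 14548 and 10244 in Amh-pa1-/- libraries. Replicates 1 and 2 of Amh-pa1-/- lay above all Pa1F/F libraries and replicate 3 lay among them. The log2 fold change was 0.41 (standard error 0.15, 95% interval 0.05 to 0.77, edgeR adjusted p = 0.0768), and 0.56 without replicate 3 (edgeR adjusted p = 0.00155). DESeq2 gave an adjusted p of 0.0354 and edgeR without a low-count filter 0.0296. The other 11 of 14 alternatives left Jam2 short of the threshold, with an adjusted p of up to 0.379 in edgeR.

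F11r, which encodes JAM-A, gave 6009, 5842 and 6051 normalized counts in Pa1F/F and 7289.6, 7519.7 and 4833 in Amh-pa1-/- libraries. Amh-pa1-/- replicates 1 and 2 lay above and replicate 3 below all Pa1F/F libraries. Its log2 fold change was 0.13 (95% interval -0.25 to 0.52, edgeR adjusted p = 0.554), and 0.31 without replicate 3 (edgeR adjusted p = 0.00102). Cxadr, the coxsackie and adenovirus receptor, an adhesion molecule found at tight junctions, gave 2882, 2892 and 2942 in Pa1F/F and 3792, 3595 and 3394 in Amh-pa1-/- libraries. All Amh-pa1-/- libraries were above all Pa1F/F libraries by a modest margin (log2 fold change 0.31, standard error 0.06, edgeR adjusted p = 0.00703). Jam3 had a log2 fold change of 0.18 (95% interval 0.00 to 0.36, edgeR adjusted p = 0.103), and an antisense RNA lies across it, as another noncoding RNA does across Cxadr. Esam, an adhesion molecule of endothelial cells and platelets, had 10, 13 and 13 raw counts in Pa1F/F and 5, 6 and 4 in Amh-pa1-/- libraries and was not tested; all 3 Amh-pa1-/- values were lower, as was the summed level of the endothelial markers, and the relation between them was not tested.

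The plaque held the gene with the lowest adjusted p of the set, Cgnl1. Cingulin (Cgn) and paracingulin (Cgnl1) are related coiled-coil proteins that bind ZO proteins, actin and microtubules and hold regulators of small GTPases at the junction. Cgnl1 (ENSMUSG00000032232, chr9:71626509-71771602, minus strand) gave 6487, 6003 and 6356 normalized counts in Pa1F/F and 1636, 1668 and 1356 in Amh-pa1-/- libraries. The groups lay far apart, and the 3 Amh-pa1-/- values, replicate 3 included, lay close together. The mean went from 6282 ± 250.3 (SD, n = 3) to 1553 ± 172 (SD, n = 3), 4.04-fold lower (log2 fold change -2.02, standard error 0.09, edgeR adjusted p = 6.99e-05), and the gene was past the adjusted p of 0.05 under all 14 of these alternatives.

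Its relative Cgn (ENSMUSG00000068876, chr3:94760069-94786492, minus strand) moved the other way. It gave 7513, 7208 and 7807 normalized counts in Pa1F/F and 14837, 15270.4 and 10102 in Amh-pa1-/- libraries. All Amh-pa1-/- libraries were above all Pa1F/F libraries, with replicate 3 nearest to them. The mean went from 7509.6 ± 299 (SD, n = 3) to 13403 ± 2867 (SD, n = 3), 1.78-fold higher (log2 fold change 0.84, standard error 0.16, edgeR adjusted p = 0.00737).

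Per length, paracingulin made up 40.3, 39.4 and 38.9% of the summed FPKM of both genes in Pa1F/F and 7.94, 7.87 and 9.50% in Amh-pa1-/- replicates 1, 2 and 3. The share was thus nearly the same in all libraries of a genotype, replicate 3 included. The ratio of Cgn to Cgnl1 was 1.53 ± 0.0453 in Pa1F/F and 10.9 ± 1.23 in Amh-pa1-/- cells (SD, n = 3), a description of a pair chosen with its values known. The summed FPKM of both genes overlapped between the groups, at 135 ± 5.00 in Pa1F/F and 159 ± 32.6 in Amh-pa1-/- cells (SD, n = 3). In the order of levels over the 47 genes, Cgnl1 was in place 5 in Pa1F/F and in place 13 in Amh-pa1-/- cells.

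The sequences just before the start sites are shown for the 3 genes called lower, and for Cgn because it moved opposite to its relative Cgnl1. Each is the 250 bases before the RefSeq start of the gene on GRCm38.p6, written 5′ to 3′ as the RefSeq table gives it, and capitals mark the letters of a GC box (GGGCGG, or CCGCCC where it is read from the other strand).
Cgnl1: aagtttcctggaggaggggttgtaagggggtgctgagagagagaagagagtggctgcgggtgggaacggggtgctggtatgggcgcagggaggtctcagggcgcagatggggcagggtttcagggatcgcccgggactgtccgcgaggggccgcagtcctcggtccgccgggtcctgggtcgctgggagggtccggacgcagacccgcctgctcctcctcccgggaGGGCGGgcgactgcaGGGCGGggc
Cgn: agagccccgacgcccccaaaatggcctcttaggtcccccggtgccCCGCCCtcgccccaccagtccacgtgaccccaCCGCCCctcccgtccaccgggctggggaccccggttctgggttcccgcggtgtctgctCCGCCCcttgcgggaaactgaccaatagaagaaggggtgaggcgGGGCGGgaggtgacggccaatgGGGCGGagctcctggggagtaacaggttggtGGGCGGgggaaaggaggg
Cldn7: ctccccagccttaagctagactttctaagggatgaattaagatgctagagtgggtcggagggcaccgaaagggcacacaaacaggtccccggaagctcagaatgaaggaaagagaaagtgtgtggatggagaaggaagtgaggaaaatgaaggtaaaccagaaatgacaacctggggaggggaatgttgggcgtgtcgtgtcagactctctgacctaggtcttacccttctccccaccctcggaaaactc
Cldn2: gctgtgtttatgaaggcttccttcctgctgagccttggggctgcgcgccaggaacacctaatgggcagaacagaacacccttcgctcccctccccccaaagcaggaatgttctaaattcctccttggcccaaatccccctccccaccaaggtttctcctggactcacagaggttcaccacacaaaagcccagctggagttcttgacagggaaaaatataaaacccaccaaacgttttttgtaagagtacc
The table's orientation could be checked for 31 of the 37 matched genes, Cldn2 not among them, and was that of the gene in each. The sequences lie at chr9:71771603-71771852 (minus strand), chr3:94786483-94786732 (minus), chr11:69964529-69964778 (plus) and chrX:139800558-139800807 (plus). The Cgnl1 and Cgn sequences are rich in G and C (70.8% and 70.4%) and hold 2 and 6 GC boxes. Those of Cldn7 and Cldn2 have 51.2% and 52.0% G and C and hold none. Of all 32851 RefSeq promoters of this length 32.7% hold a GC box on either strand, as do 60.1% of the 10122 that belong to tested coding genes and 20 of the 28 that belong to tested genes of the set (71.4%). The letters of an AP-1 site (TGANTCA, either strand) occur in 6.75% of all promoters, in 4.22% of those of tested coding genes, and in 3 of the 37 matched for the 47 genes (Cldn4, Cldn15 and F11r), 2 of them tested. AACAAT, the letters of a SOX site, occur in 9.42% of all promoters, in 4.92% of those of tested coding genes and in 0 of the 37. AGATAA, the letters of a GATA site, occur in 9.99% and 5.7% and in 3 of the 37, all of genes that were not tested (Cldn10, Cldn18 and Tjp3). Genes with no promoter entry included Cldn23, Cxadr, Esam, Jam2, Jam3, Marveld3, Mpdz, Mpp5 and Pard6g.

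The ZO proteins link claudins to actin. Tjp1 (ZO-1) gave 3408, 3188 and 3412 normalized counts in Pa1F/F and 3071, 3240.0 and 2855 in Amh-pa1-/- libraries. The groups overlapped, and the log2 fold change was -0.13 (standard error 0.06, 95% interval -0.28 to 0.03, edgeR adjusted p = 0.169). Tjp3 (ZO-3) had 5, 13 and 7 raw counts in Pa1F/F and 2, 2 and 10 in Amh-pa1-/- libraries, overlaps the more counted Apba3 on the other strand, and was not tested.

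The MAGI genes encode inverted scaffolds with several PDZ domains. Magi1 gave 449, 379 and 469.9 normalized counts in Pa1F/F and 989.8, 931 and 611 in Amh-pa1-/- libraries, a 1.95-fold rise of the mean (log2 fold change 0.96, standard error 0.19, edgeR adjusted p = 0.00890). Magi3, the more abundant gene, gave 2775, 2614 and 2715 in Pa1F/F and 2150.4, 2186 and 1548 in Amh-pa1-/- libraries, and fell (log2 fold change -0.46, standard error 0.13, edgeR adjusted p = 0.0319). In both genes the groups did not overlap, and Amh-pa1-/- replicate 3 was the lowest of its group. The span of Magi3 overlaps that of Phtf1 on the other strand, and the strand setting of the counting was not given in the sources used here. Whether reads of Phtf1 enter the Magi3 counts was not tested. Leaving out any single Pa1F/F library left Magi3 short of the threshold, at an edgeR adjusted p of 0.0619 to 0.101. So did summing the close pairs (edgeR adjusted p = 0.140). Magi2 had a log2 fold change of -0.06 (95% interval -0.46 to 0.35, edgeR adjusted p = 0.817). Mpdz encodes MUPP1, a protein of many PDZ domains that binds claudins. It gave 632, 594 and 767 normalized counts in Pa1F/F and 1239, 1192 and 961 in Amh-pa1-/- libraries, without overlap (log2 fold change 0.77, standard error 0.13, edgeR adjusted p = 0.00543).

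**Figure D3:**
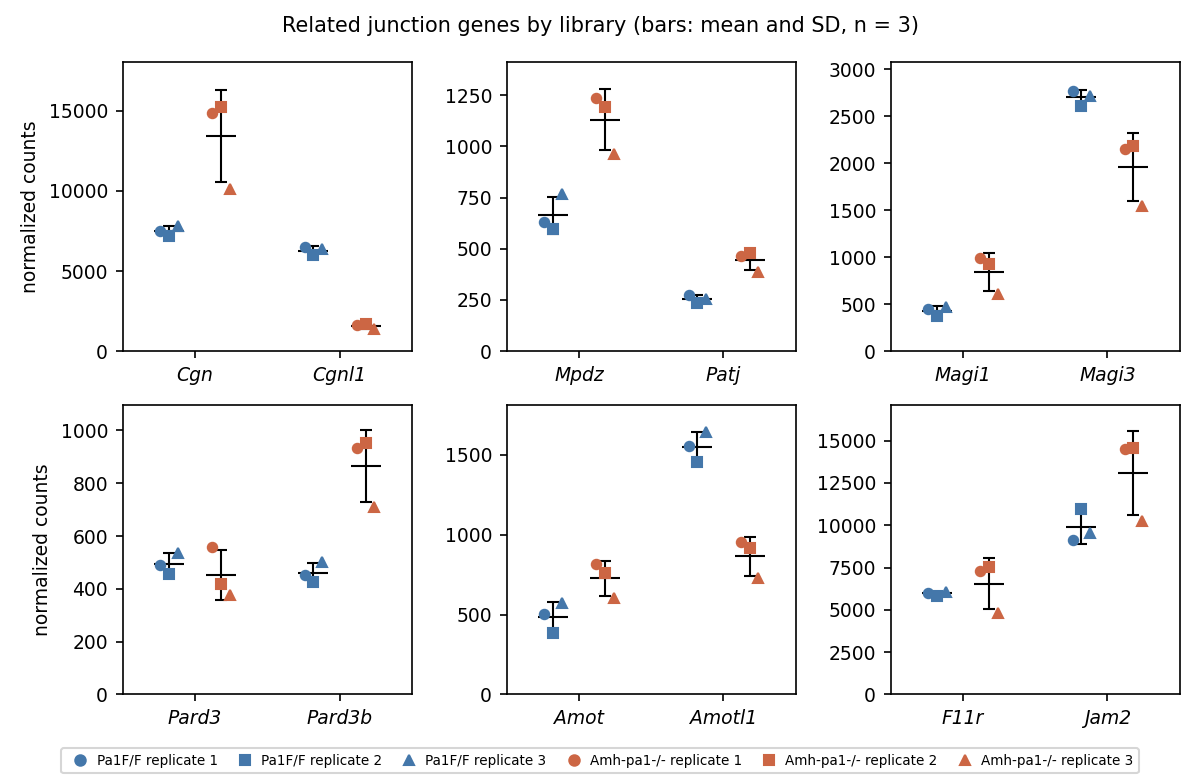
Normalized counts (vertical axes, starting at 0) in each library for 6 pairs of related genes; blue points are the Pa1F/F and orange points the Amh-pa1-/- libraries, symbols mark the replicate, and bars give the mean and SD of 3 libraries. Cgn rises while Cgnl1 falls, Magi1 rises while Magi3 falls, Amot rises while Amotl1 falls, Mpdz and Patj both rise, and Pard3b lies above Pa1F/F while Pard3 overlaps with it; replicate 3 (triangles) lies nearest to Pa1F/F for Cgn, Magi1, Mpdz, Patj, Pard3b, Amot and Jam2.

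All 10 genes of the PAR and Crumbs complexes were tested, 3 rose, and none fell past the threshold. The PAR complex joins PAR3, PAR6 and an atypical protein kinase C, and the Crumbs complex joins CRB3, PALS1 (Mpp5) and PATJ. Pard3b, a relative of Pard3, gave 451, 427 and 503 normalized counts in Pa1F/F and 934, 952 and 709 in Amh-pa1-/- libraries. The groups lay apart, and the mean was 1.88-fold higher (log2 fold change 0.91, standard error 0.13, edgeR adjusted p = 0.00283). Pard3 gave 490.2, 456 and 537 in Pa1F/F and 557, 420.2 and 378 in Amh-pa1-/- libraries, with overlap and a log2 fold change of -0.13 (95% interval -0.50 to 0.24, edgeR adjusted p = 0.550). Pard3b made up 51.7 ± 0.255% of the summed FPKM of both in Pa1F/F and 68.8 ± 3.24% in Amh-pa1-/- cells (SD, n = 3).

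Pard6b, the most counted of the PAR6 genes, gave 1693, 1552 and 1716 normalized counts in Pa1F/F and 2399, 2341 and 2243 in Amh-pa1-/- libraries. The spread within each group was small beside the distance between them (log2 fold change 0.49, standard error 0.06, edgeR adjusted p = 0.00139). Pard6a and Pard6g had log2 fold changes of -0.25 (95% interval -0.89 to 0.39, edgeR adjusted p = 0.505) and 0.12 (95% interval -0.10 to 0.35, edgeR adjusted p = 0.357). The atypical kinase genes Prkci and Prkcz had 0.11 (95% interval -0.10 to 0.32, edgeR adjusted p = 0.384) and 0.42 (95% interval -0.36 to 1.20, edgeR adjusted p = 0.354).

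Patj, the large scaffold of the Crumbs complex and a relative of Mpdz, gave 274, 236 and 255 normalized counts in Pa1F/F and 465, 481 and 389 in Amh-pa1-/- libraries. It rose without overlap (log2 fold change 0.80, standard error 0.11, edgeR adjusted p = 0.00261), as Mpdz did. Its partner Mpp5 had a log2 fold change of 0.06 (95% interval -0.08 to 0.20, edgeR adjusted p = 0.474). Crb3, the Crumbs protein of most epithelia, had only 17, 18 and 16 raw counts in Pa1F/F and 6, 4 and 15 in Amh-pa1-/- libraries. Replicate 3 lay just under the Pa1F/F values, replicates 1 and 2 lay well below, and the log2 fold change was -0.94 (95% interval -2.01 to 0.12, edgeR adjusted p = 0.147). Without replicate 3 it was -1.64 (edgeR adjusted p = 0.0117). The span of Crb3 overlaps that of Slc25a23 on the other strand, a far more counted gene. Whether any of its few reads come from that neighbour was not tested.

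The 3 angiomotins bind the Crumbs scaffolds PATJ and MUPP1 and hold the coactivator YAP at junctions. Amotl1 gave 1555, 1457 and 1641 normalized counts in Pa1F/F and 955, 917 and 726 in Amh-pa1-/- libraries. All Amh-pa1-/- libraries lay well below all Pa1F/F libraries, the mean fell 1.79-fold (log2 fold change -0.84, standard error 0.11, edgeR adjusted p = 0.00204), and it was past the adjusted p of 0.05 under all 14 of these alternatives. Amot gave 505, 384 and 572 in Pa1F/F and 817, 760.4 and 604 in Amh-pa1-/- libraries. Its groups were separate but close, the log2 fold change was 0.58 (standard error 0.17, edgeR adjusted p = 0.0389), and under 6 of 14 alternatives it was not past 0.05, with an adjusted p of up to 0.151. Among these were the fits without Pa1F/F replicate 1 or 2 (edgeR adjusted p = 0.0967 and 0.0736) and without Amh-pa1-/- replicate 1 or 2 (0.116 and 0.0985). Amotl2, the most abundant of them, had 0.18 (95% interval 0.02 to 0.33, edgeR adjusted p = 0.0741), and 0.13 without Amh-pa1-/- replicate 3 (edgeR adjusted p = 0.0457). Amotl1 made up 16.7 ± 0.295% of the summed angiomotin FPKM in Pa1F/F and 8.86 ± 1.44% in Amh-pa1-/- cells (SD, n = 3).

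**Figure D4:**
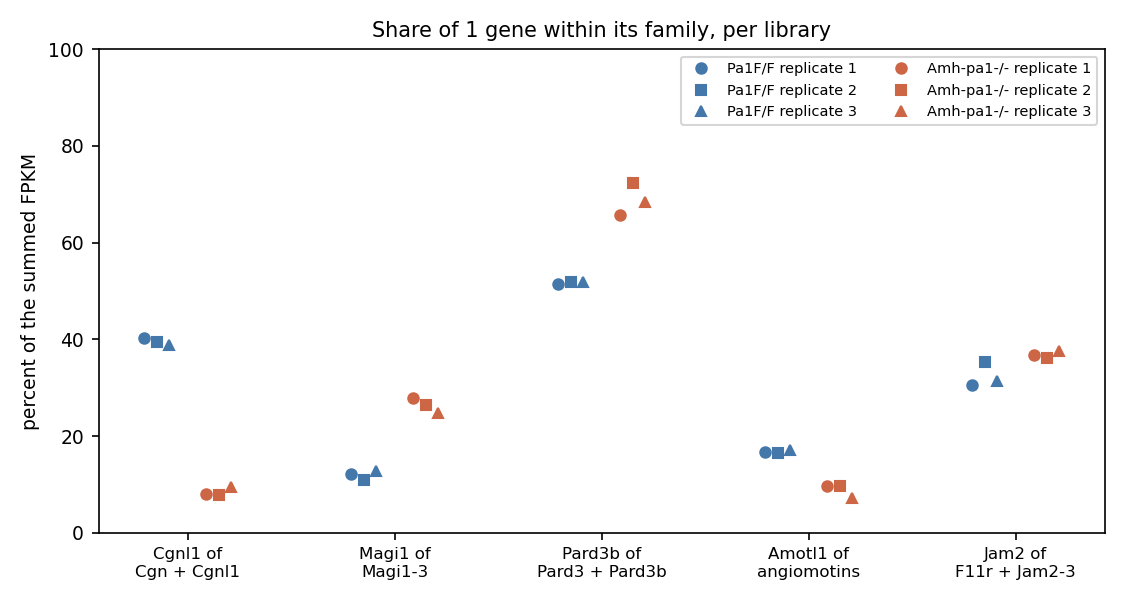
Share of 1 gene in the summed FPKM of its family (vertical axis, percent) in each library, for 5 families; blue points are Pa1F/F, orange points Amh-pa1-/- and symbols mark the replicate. The Cgnl1 share falls from about 39.5% to 8.43% in the means and the Amotl1 share falls too, the Magi1 and Pard3b shares rise, and the Jam2 share differs little; in none of them do the genotypes overlap.

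The summed level of all 47 genes was 1046 ± 16.4 FPKM in Pa1F/F and 1045 ± 25.8 in Amh-pa1-/- cells (SD, n = 3), with overlap. Of the 47, 31 stood at or above 1 FPKM in Pa1F/F and 30 in Amh-pa1-/- cells, and 14 and 15 stood at or above 10. In Pa1F/F the order was led by Cldn11, F11r at 117 ± 2.16 (SD, n = 3), Cgn at 81.7 ± 3.26 (SD, n = 3), Jam2 at 60.6 ± 5.90 (SD, n = 3) and Cgnl1 at 53.4 ± 2.13 (SD, n = 3) FPKM. The ranges of mean ± SD of neighbours in this order did not meet, other than those of Jam2 and Cgnl1. In Amh-pa1-/- cells Cldn11 was followed by Cgn at 146 ± 31.2 (SD, n = 3), F11r at 128 ± 29.2 (SD, n = 3) and Jam2 at 80.4 ± 15.2 (SD, n = 3) FPKM. The ranges of Cgn and F11r overlapped there, and that of Jam2 lay below both.

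Amh-pa1-/- replicate 3 was the library of its group nearest to the Pa1F/F mean for 11 of the 17 genes past the threshold, replicate 1 for 4 and replicate 2 for 2. Replicate 3 also held the highest levels of its group for Cldn4, Cldn3, Cldn1, Crb3 and Cldn11, and the lowest for Magi1, Cldn23, F11r, Cgn and Jam2. Without it, the number of genes past the adjusted p of 0.05 was 8 lower and 15 higher of the tested members, in place of 5 and 12. The share of all genes past that threshold in the same fit is not given here, so this rise cannot be set against a background. The number called over all genes, with the demand on fold, also rose, from 1791 to 2076. Cgn (log2 fold change 1.01), Magi1 (1.15) and Pard3b (1.04) then also passed 2-fold and were called higher, and Crb3 was called lower. Magi1 also passed 2-fold without Pa1F/F replicate 3 (1.04).

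A further 36 genes of junctions and polarity that the name rule leaves out were listed for comparison, and 32 were tested. Of these, 3 were lower and 7 higher at the adjusted p of 0.05 (31.3% in all, near the 35.3% of all genes), and 3 were called, all higher (9.38%, beside 5.44% of all genes called higher and 12.0% called either way). Crb2, a Crumbs relative, gave 101, 169 and 108 normalized counts in Pa1F/F and 829.7, 872 and 628 in Amh-pa1-/- libraries, the largest change in the list (log2 fold change 2.62, standard error 0.23, edgeR adjusted p = 0.000488). Ildr2, of the angulin family that recruits tricellulin to cell corners, gave 6266, 5261 and 6529.8 in Pa1F/F and 12806, 12910.3 and 12374 in Amh-pa1-/- libraries (log2 fold change 1.08, standard error 0.09, edgeR adjusted p = 0.000444). Nectin3, an adhesion molecule of the nectin family, gave 448, 406 and 442 in Pa1F/F and 930.2, 967 and 1042 in Amh-pa1-/- libraries (log2 fold change 1.18, standard error 0.08, edgeR adjusted p = 0.000177). In all 3 the genotypes did not overlap. Lsr, another angulin, was lower (log2 fold change -0.79, edgeR adjusted p = 0.00279), as were Scrib, a basolateral polarity protein (-0.71, edgeR adjusted p = 0.000243), and Arhgef2, the exchange factor GEF-H1 that cingulin binds (-0.31, edgeR adjusted p = 0.0212). Llgl1, Ctnna1, Rock2 and Ybx3 were higher by less than 2-fold, with log2 fold changes of 0.36 to 0.77.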

How the data were processed

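The data are the gene counts of 6 RNA-seq libraries, 3 per genotype, grouped by their titles. The authors aligned reads to GRCm38 with HISAT2 2.1.0 and counted reads per gene with HTSeq 0.6.0, and deposited these raw counts. The strand setting was not given in the sources used here, so reads of overlapping genes on opposite strands may be mixed. Overlaps were taken from whole gene spans, and shared exons were not checked. The table also holds the authors' mean levels, fold changes and p-values, which were not used. The study's methods name DEGseq, which was not run here.

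All 28262 genes entered edgeR 4.0.16 (R 4.3.3): filterByExpr (minimum count 10, minimum total 15), TMM scaling and the quasi-likelihood F-test, adjusted by Benjamini-Hochberg over 14919 genes. Called means adjusted p under 0.05 and a change of 1 or more log2 units either way. The standard error is the absolute log2 fold change over the square root of F. FPKM used exon lengths from a GENCODE annotation of a later build (GRCm39), matched by gene ID; levels between genes, ranks and family shares rest on these lengths. Promoters came from RefSeq on GRCm38.p6, with 37 of the 47 genes matched. The fit was tested on simulated counts. Intervals of summed counts and the limit of 3 counts cover counting error only.

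Values are given for the genes past the adjusted p of 0.05, other than 1 gene that enters the counts but is not reported here, and for Cldn11, Cldn3, Cldn5, Ocln, Tjp1 and Jam2 whatever their test; the genes and lists were chosen with earlier results of these data known. Shares within families were added after the values were seen. Alternatives were DESeq2 1.42.0, limma-voom (limma 3.58.1), other scalings and filters, a test against a 2-fold change, a replicate block, each library left out in turn, and close pairs summed.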

Additional observations from a re-analysis of the deposited data

How the results depend on the processing

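The results for the claudins of low count (Cldn2, Cldn3, Cldn1) and Crb3 rest on few reads. All results rest on 3 libraries per genotype, with 1 close pair in each. Tested against a 2-fold change, 538 of all genes in place of 1791 were called, and of the set 3 were lower and 0 higher. The number called higher was 2 without a low-count filter, 0 with at least 10 counts in every library, and 1 to 4 when each library was left out (2 without Pa1F/F replicate 3 and 4 without Amh-pa1-/- replicate 3). Leaving out libraries gave 4 to 8 members lower at the adjusted p of 0.05, a median log2 fold change of 0.070 (without Amh-pa1-/- replicate 2) to 0.16, and 9 to 17 other pathway genes, the highest counts without Amh-pa1-/- replicate 3. Shares of all genes at that adjusted p in these fits are not given here. With the close pairs summed, 883 of all genes and 0 higher members were called, 3 members were lower and 2 higher at the adjusted p of 0.05, as were 6 other pathway genes. The cause was not tested; that fit has fewer libraries.

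Signs turned only for genes that were not past the threshold in the main analysis, and the turned values were not past it either. Ocln was 0.0037 with low-count genes kept, 0.029 with the close pairs summed, and -0.067 to 0.038 over the libraries left out, Marveld2 -0.018 to 0.17, Pard6a -0.40 to 0.0073, Magi2 -0.14 to 0.084, Cldn4 -0.96 to 0.071, and Cldn23 -0.033 to 0.27 (and -0.0025 with the close pairs summed).

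Deviations of same-numbered libraries correlated at 0.10, -0.16 and -0.17, and those of differently numbered libraries at -0.17 to 0.21. With 3 libraries per genotype this cannot decide whether the replicate numbers pair the libraries. With the number as a replicate block, 1558 genes were called, the set's counts were 3 lower and 1 higher, and 5 lower and 10 higher without the fold. Amot (edgeR adjusted p = 0.0807) and Marveld1 (edgeR adjusted p = 0.0636) were then not past the threshold. Scaling by DESeq2 size factors or by library totals kept the counts at 5 lower and 12 higher.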
